A study of Homo sapiens with 18 samples.

Results

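The genes described here act in the cellular response to low oxygen. In that pathway HIF1A and EPAS1 encode the oxygen-sensitive alpha subunits of the hypoxia-inducible factors HIF-1 and HIF-2, which pair with ARNT on DNA and switch on their target genes. When oxygen is plentiful, prolyl hydroxylases such as the products of EGLN1 (PHD2) and EGLN3 (PHD3) modify the alpha subunits, and VHL, the substrate-binding part of a ubiquitin ligase, then marks them for breakdown. Known targets include VEGFA, a growth factor for blood vessels, ADM, a vasodilating peptide hormone, BNIP3, a mitochondrial protein of autophagy and cell death, and CA9, a carbonic anhydrase of the cell surface. Much of the control of HIF-1 alpha lies in the stability of the protein, which an expression array does not measure.

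All probe sets whose only gene symbol in the platform annotation was one of these 9 symbols were taken, which gave 19 of 54675 probe sets and covered 8 of the 9 genes. EGLN1 and VEGFA had 4 probe sets each, EPAS1 had 3, and VHL, EGLN3 and BNIP3 had 2 each. HIF1A and ADM had 1 each, and CA9 was not analysed here. The probe set of a gene that was brightest on C1, the scan of the standard protocol, is called its main probe set. The GeneChip design spreads the probes of a probe set along a transcript, so the brightness of a probe set depends on its probes as well as on the transcript and is no measure of the amount of one transcript against another.

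The study asked how stringent washing changes microarray signals. One RNA preparation from untreated FTC-133 cells, a human follicular thyroid carcinoma line under standard culture, was labelled with biotin and hybridized to 3 HG-U133 Plus 2.0 arrays named A, B and C. After staining with streptavidin phycoerythrin, array A was scanned at 0, 2, 7 and 17 stringent cycles (scans A1 to A4), and array B likewise (B1 to B4) but with 2 further cycles ahead of its staining. All arrays were then stained again and taken through the same steps in a second series, which gave A5 to A8 and B5 to B8, and array C, washed for 6 cycles before each staining as in the standard protocol, was scanned as C2 in the second series and as C1 in the first. There is thus no hypoxic or otherwise treated group: every one of the 18 scans reads the same RNA of a single culture, and a difference between scans is a difference in washing, staining or array. Scans of an array are repeated readings of the same hybridization, so all p-values below measure technical spread only.

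The values are MAS5 signals, which combine perfect match and mismatch intensities of a probe set on a linear scale. The authors scaled each scan to a common trimmed mean, between 250.02 and 250.06 on the 18 scans. Under this scaling the median signal of all probe sets differed widely between scans, from 51.0 on C1 to 136 on A1. Over 17 cycles the log2 median fell by 0.34 and 0.25 for arrays A and B in the second series, and by 0.66 and 0.25 for A and B in the first, whereas the 100 brightest probe sets gained 0.80 to 1.38 on average. All changes below are therefore log2 differences after each scan was centred on its own median, unless stated otherwise.

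The labelled cell type was compared with thyroid and epithelial markers. PAX8 and NKX2-1, transcription factors of the thyroid lineage, had signals of 757 and 766 on C1, and KRT18, an epithelial keratin, had 1408. TG, TSHR and FOXE1 lay below the median of all probe sets on that scan with signals of 40.7, 38.9 and 39.9, and so did the epithelial markers CDH1 and KRT19. The 15 probe sets for blood, endothelial, hepatocyte, muscle and neuron markers had C1 signals between 3.46 and 111.

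On C1 the 19 hypoxia probe sets lay between the 17.96th and the 99.8th percentile of all probe sets, with a median at the 76.0th percentile. Of these, 5 were in the highest decile (the probe set of HIF1A, both of BNIP3 and the main ones of EGLN1 and VEGFA), and 4 were below the median (2 of EPAS1, 1 of VHL and 1 of EGLN1). Probe sets of a single gene lay far apart. EGLN1 spanned the 39.1st to the 95.4th percentile, VEGFA the 64.0th to the 94.2nd and EPAS1 the 17.96th to the 74.6th. The ranking moved with the washing state, and on A1, the scan without any stringent washing, the median of the 19 was the 65.4th percentile.

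**Figure D1:**
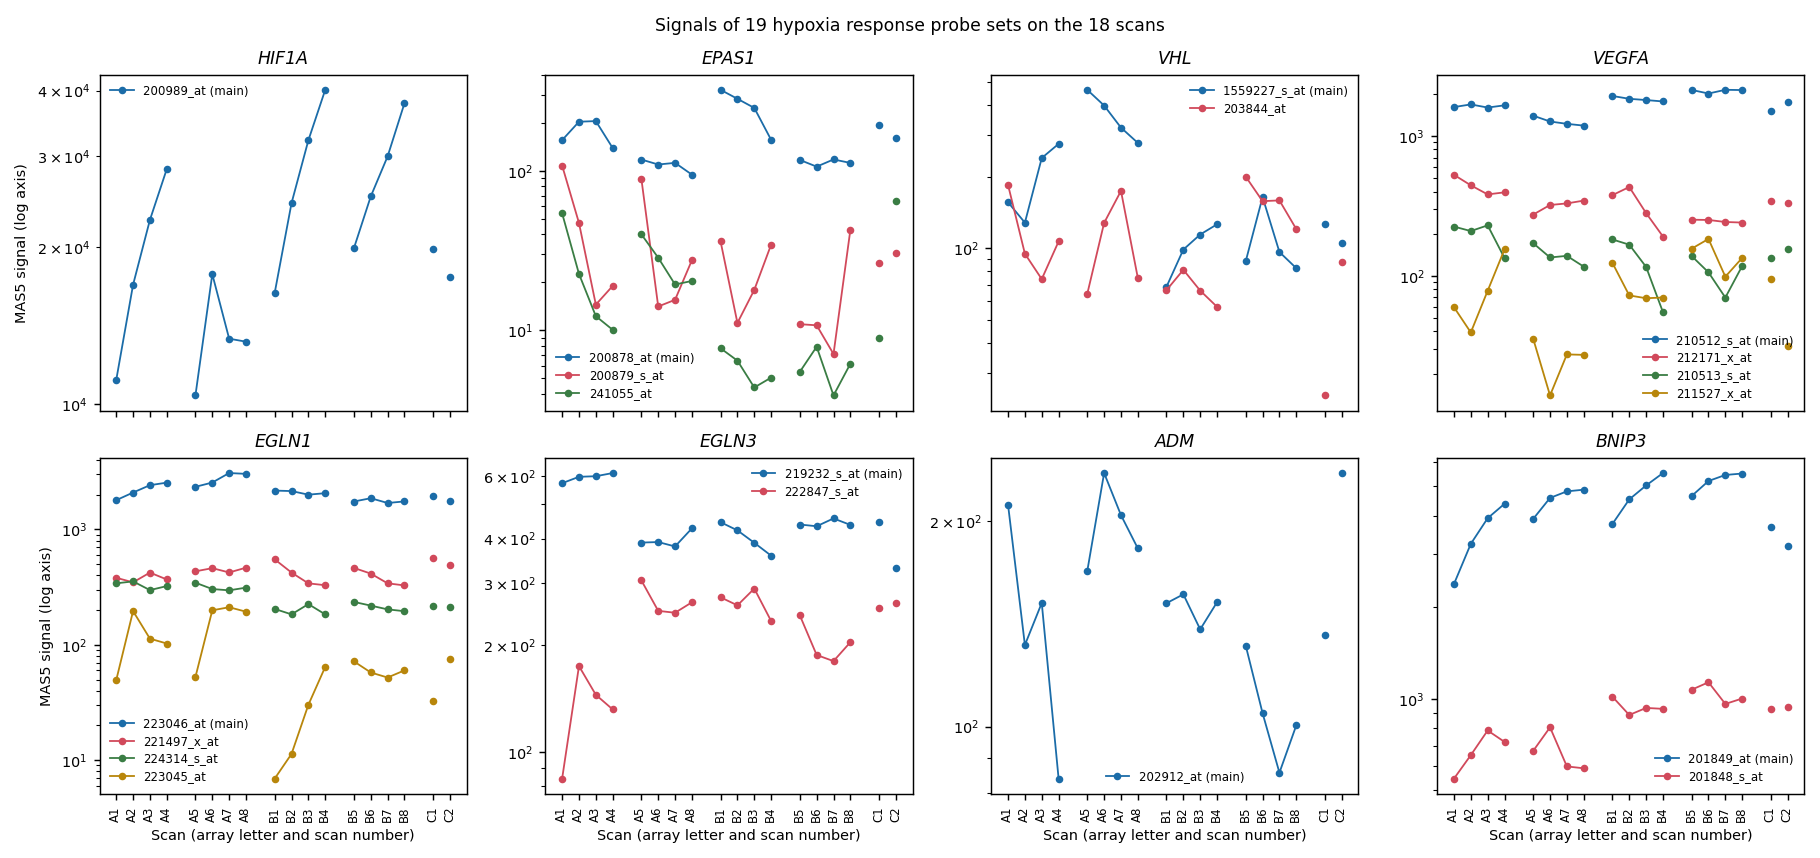
MAS5 signal (log axis, a different range in each panel) of each hypoxia response probe set on the 18 scans, which run along the horizontal axis by array letter and scan number; lines join the 4 scans of an array within a series and each colour is a probe set. HIF1A runs between 10386.5 and 40154, whereas the dim probe set 223045_at of EGLN1 spans 6.92 to 212.

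HIF1A, the oxygen-regulated subunit of HIF-1, was read by probe set 200989_at, which was bright on every scan. On array A its signal was 11114, 16946, 22580.3 and 28282 after 0, 2, 7 and 17 cycles in the first series. In the second series the same array gave 10386.5, 17761, 13350.5 and 13175. On array A the signal, as scaled per scan, was thus higher at each further washing step of the first series. In the second series the highest value came after 2 cycles. The study describes probe intensities as decreasing with washing, with the brightest nearly unchanged.

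Array B gave 16335, 24315, 32118 and 40154 at the same steps of the first series. After its second staining the values were 19914, 25048, 29909 and 37834. Both series of array B thus increased at every step, and C2 and C1 gave 17514 and 19853. By brightness HIF1A ranked between 1st (B8) and 318th (A8) of all 54675 probe sets on the 9 scans of the second series, and between 28th and 103rd on those of the first. The study describes that in the second series some bright probes reached the upper limit of the scanner. The highest signal of any probe set after 17 cycles was 28553 on A8 and 34355 on A4, and 37834 (HIF1A itself) on B8 and 51804 on B4. Intensities of single probes were not used here, so the part of this limit in the levels, ranks and changes of HIF1A in the second series was not tested.

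Over 17 cycles of the first series the log2 change of HIF1A was 2.01 for array A and 1.55 for array B. In the fit the change was 1.78 ± 0.38 (SE, limma adjusted p = 0.268), which did not pass the threshold, and it was -0.035 once scans were aligned on the 100 probe sets brightest on C1 (the anchored scale) and -0.036 after quantile normalization. HIF1A ranked 103rd on C1 and so was not among the anchoring probe sets. Anchored values are relative to those probe sets and do not show a loss shared with them. After 17 cycles of the first series the anchored HIF1A signal was 98.1% of its start for array A and 97.2% for array B. In the second series it was 72.9% for array A and 96.7% for array B. The part of the scanner limit in HIF1A or in the anchoring probe sets was likewise not tested.

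The probe sets most like HIF1A over the 18 scans, by Pearson correlation of centred log2 signal, belonged to RPL19, a ribosomal protein (r = 0.977), the mitochondrially encoded COX2 (r = 0.977) and NPM1, a nucleolar protein (r = 0.977). All lay between the 99.66th and the 99.97th percentile on C1. These 18 points come from 3 arrays and share their washing steps, so the correlations are a description.

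EPAS1, the HIF-2 alpha gene, had 3 probe sets that did not follow each other. The main one, 200878_at, had signals of 156, 204, 206 and 139 on array A in the first series and 118, 109.8, 113 and 94.9 in the second. On array B they were 323, 284, 249 and 157 in the first series and 117, 107, 118 and 112 in the second, and C2 and C1 gave 160.4 and 195. On both A and B every value of the second series was below every value of the first.

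Its centred change over 17 cycles in the first series was 0.49 for array A and -0.79 for array B, so the arrays went opposite ways after centring. As deposited it fell on both arrays, by -0.16 and -1.04. On the anchored scale it was 34.4% of its start on array A and 19.2% on array B. The other EPAS1 probe sets, 200879_s_at and 241055_at, were dim, with signals between 7.10 and 108 and between 3.90 and 65.2. The brightest reading of 200879_s_at was on A1 and that of 241055_at on C2. The correlation of 200878_at with them was 0.074 and -0.41 over the 18 scans.

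EGLN1 encodes PHD2, the main oxygen-sensing hydroxylase of HIF alpha. Its main probe set, 223046_at, had signals of 1793, 2088, 2418 and 2544 on array A in the first series and 2340.5, 2549.8, 3081 and 3032 in the second. On array B the same probe set gave 2171, 2150.3, 2001 and 2061, and then 1746, 1865, 1695 and 1749. Array A therefore read higher after re-staining at each step and array B lower.

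The probe set 223045_at of the same gene had the widest range of deposited signals among the 19, with a ratio of 30.6 between its highest and lowest. After centring its SD over the 18 scans was 1.21 on the log2 scale, below the 1.32 of VEGFA 211527_x_at. On array B it gave 6.92, 11.3, 30.2 and 64.4 in the first series and 71.9, 57.6, 52.0 and 60.0 in the second. On array A it was 49.3, 196, 113 and 103, and then 52.6, 199.1, 212 and 194. Its lowest reading on array A thus came at 0 additional cycles in both series, whereas on array B the step of 0 cycles gave the lowest reading of the first series and the highest of the second. The remaining EGLN1 probe sets kept to narrow ranges, 327 to 560.4 for 221497_x_at and 184 to 355 for 224314_s_at.

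EGLN3 encodes PHD3, a hydroxylase that is itself a target of HIF. Its main probe set, 219232_s_at, had 573, 597, 599.5 and 612 on array A in the first series, but 389.6, 391, 379.9 and 427 in the second. Array B gave 445, 422, 389 and 358, and after re-staining 438, 433, 456 and 437. The other probe set, 222847_s_at, was lowest on A1 with 84.1 and lay between 132 and 305 on all other scans.

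VHL, which recognises hydroxylated HIF alpha, had its main probe set 1559227_s_at at 156, 128, 239 and 274 on array A in the first series and at 462, 397, 321 and 277 in the second. Array B gave 69.0, 98.8, 114 and 126, and then 88.2, 164, 96.5 and 82.5. After the first staining the highest reading of both arrays thus came at 17 cycles, and after the second at 0 cycles on array A and 2 cycles on array B. The probe set 203844_at ranged from 24.1 on C1 to 199.9 on B5, and its correlation with 1559227_s_at was -0.24.

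VEGFA, the angiogenic target, was among the steadier of the bright probe sets on the deposited scale. Its main probe set, 210512_s_at, had 1607, 1679, 1594 and 1654 on array A in the first series and 1395, 1267, 1219.55 and 1184 in the second. Array B gave 1929, 1842, 1804 and 1763, and then 2131, 2008, 2135 and 2127. Its highest signal was 1.80 times its lowest, and array B read higher than array A at every step.

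The other VEGFA probe sets were dimmer, at 191 to 527 for 212171_x_at, 54.9 to 229 for 210513_s_at and 13.96 to 183 for 211527_x_at. Their correlations with each other and with the main one lay between 0.31 and 0.84. The probe sets most like 210512_s_at belonged to ASAP1, a regulator of ARF proteins (r = 0.990), ATP6V1C1, a subunit of the vacuolar proton pump (r = 0.989), and SDE2 (r = 0.988).

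ADM, which encodes adrenomedullin, had a single probe set, 202912_at, without a common course. Array A gave 212, 132, 152 and 83.8 in the first series and 169, 236, 204 and 183 in the second. Array B gave 152, 156, 139 and 152, and then 131, 105, 85.6 and 100.4. C2 and C1 were 235 and 136.

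BNIP3, the mitochondrial target, was bright, and its main probe set increased at each step within each of the 4 runs of scans on the deposited scale. Probe set 201849_at had 2386, 3235, 3929 and 4381 on array A in the first series and 3907, 4581, 4814 and 4876 in the second. Array B gave 3760.2, 4529.5, 5034 and 5530.3, and then 4646, 5207, 5451 and 5510.2. After centring, the step from 0 to 2 cycles was the widest in 3 of the 4 runs, with a log2 change of 0.79 against 0.24 from 7 to 17 cycles for scans A1 to A4. For scans B5 to B8 the change was 0.23 from 0 to 2 cycles and 0.26 from 2 to 7 cycles.

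The second BNIP3 probe set, 201848_s_at, lay between 547 and 1134, and its correlation with the first was 0.89, the highest within any of these genes. From 0 to 17 cycles of the first series its deposited signal rose from 547 to 722 on array A and fell from 1017 to 928 on array B. In the second series it fell from 675 to 591 on array A and from 1072 to 1003 on array B. After centring these changes lay between 0.12 and 1.06. The probe sets most like 201849_at belonged to MAGT1, a magnesium transporter (r = 0.998), PSMD12, a proteasome subunit (r = 0.997), and AIDA (r = 0.997). After 17 cycles of the first series the anchored signal of 201849_at was 70.8% of its start for array A and 58.1% for array B. For 201848_s_at it was 50.9% for array A and 36.05% for array B.

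The DNA that HIF binds has a short core, ACGTG or GCGTG. Of the 9 genes, 7 were matched in RefSeq promoter sequences (GRCh38.p14, from 250 bases before to 50 after the start), and VHL and VEGFA were not. On either strand, ACGTG stood in the promoters of 3 of the 7 genes (CA9, EGLN1 and BNIP3) and in 21.4% of all 35116 promoters, and GCGTG in those of 4 genes and in 36.5% of all. The windows of EGLN1 and BNIP3 are shown because these are the measured genes with the first core, with that core in capitals (for BNIP3 as its reverse complement, which overlaps a copy on the strand shown). The EGLN1 window is chr1:231422284-231422312 and the BNIP3 window chr10:131982041-131982069, both on the minus strand and written 5′ to 3′ in the direction of the gene.
EGLN1: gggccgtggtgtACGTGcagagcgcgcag
BNIP3: gcgcacgcgccgCACGTgccacacgcacc
A match describes letters, and no scan bears on binding there.

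The fit of 17 against 0 additional cycles in the first series, over arrays A and B with the array as a block, called 0 of the 19 hypoxia probe sets at an adjusted p under 0.05, and 0.00% of all 54675 probe sets were called in either direction (limma). Their adjusted p-values ran from 0.268 to 0.966. At an unadjusted p under 0.05, 4 of the 19 were higher after washing and 0 were lower, against 6.14% of all probe sets higher and 6.21% lower.

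Those 4 were HIF1A, with the change given above, BNIP3 201849_at (1.17 ± 0.41, SE, limma adjusted p = 0.359), VHL 1559227_s_at (1.30 ± 0.42, limma adjusted p = 0.342) and EGLN1 223045_at (2.59 ± 0.79, limma adjusted p = 0.325). On the anchored scale the changes of VHL and BNIP3 were -0.52 and -0.64. The main probe set of EGLN1 changed by 0.67 ± 0.44 (limma adjusted p = 0.546) and that of VEGFA by 0.41 ± 0.39 (limma adjusted p = 0.670). EGLN3 had 0.35 ± 0.41 (limma adjusted p = 0.734), EPAS1 -0.15 ± 0.47 (limma adjusted p = 0.909) and ADM -0.21 ± 0.44 (limma adjusted p = 0.854).

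The median change of the 19 was 0.35, against 0.0090 over all probe sets. Both arrays read 9 of the 19 higher after 17 cycles and 2 lower, where 27.4% of all probe sets were higher and 26.8% lower on both. The 5 hypoxia probe sets of the highest C1 decile were all higher on both arrays, as were 84.2% of that decile. A variance trend over signal with robust moderation called HIF1A (limma adjusted p = 0.000105) and BNIP3 201849_at (limma adjusted p = 0.0146), both higher, while 3.41% of all probe sets were called higher and 0.207% lower. With cycles fitted as a line in log2(1 + cycles), HIF1A alone among the 19 was called higher (limma adjusted p = 0.0427), with 1.01% of all probe sets higher and 0.201% lower. On the anchored scale 12 of the 19 were called lower and 0 higher, with 54.6% of all probe sets lower and 0.0128% higher, and HIF1A, BNIP3 201849_at and VHL 1559227_s_at were not among the 12.

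In the second series 0 of 19 were called, with 0.00% of all probe sets (limma). Adjusted p-values ran from 0.401 to 0.997. HIF1A changed by 0.93 ± 0.33 (limma adjusted p = 0.401) and BNIP3 201849_at by 0.58 ± 0.21 (limma adjusted p = 0.402), and these were the only 2 at an unadjusted p under 0.05, where 7.11% of all probe sets were higher and 5.02% lower. On the anchored scale the changes of HIF1A and BNIP3 were -0.25 and -0.60, and 10 of the 19 were called lower and 0 higher, with 42.8% of all probe sets lower and 0.0366% higher. Both arrays read 9 of the 19 higher, against 32.0% of all probe sets, and 0 lower, against 25.5%, and the 5 of the highest C1 decile were all higher on both, as were 90.3% of that decile.

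The variance trend again called HIF1A (limma adjusted p = 0.0386) and BNIP3 201849_at (limma adjusted p = 0.00898), with 4.36% of all probe sets called higher and 0.170% lower. VHL 1559227_s_at changed by -0.12 ± 0.29 in this series (limma adjusted p = 0.870). The difference between the series, second minus first, was largest in size for EGLN1 223045_at (-1.49 ± 1.14) among the hypoxia probe sets and had the lowest p for VHL 1559227_s_at (-1.42 ± 0.47, limma adjusted p = 0.751). It passed for 0 of 19 and for 0.00% of all probe sets (limma), and VHL was the only one at an unadjusted p under 0.05, against 2.79% of all probe sets lower and 3.73% higher.

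**Figure D2:**
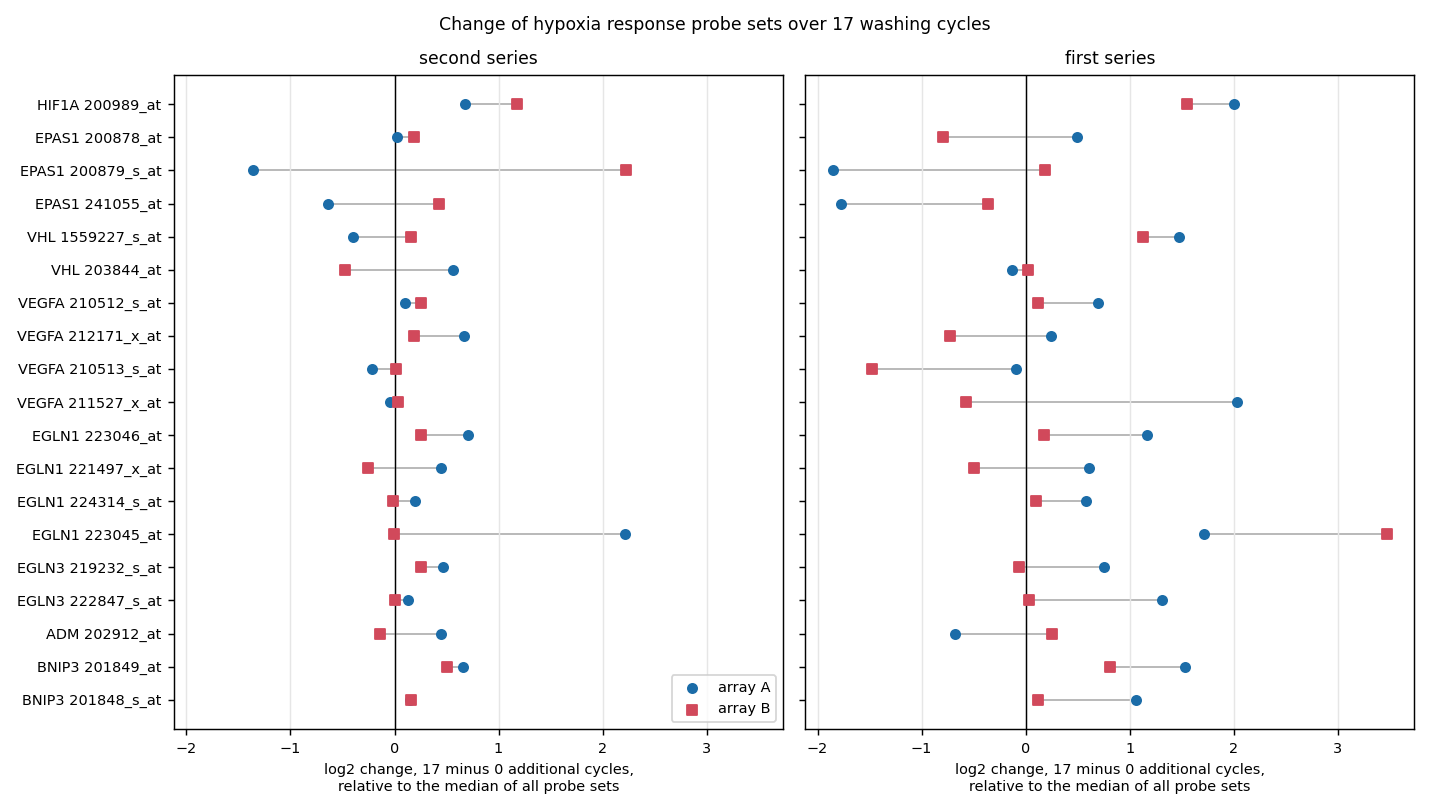
Log2 change from 0 to 17 additional cycles (horizontal axis, each scan centred on its median) of the 19 probe sets in rows, in the second series (left) and the first (right), with circles for array A, squares for array B and a grey line joining them. HIF1A lies at 2.01 and 1.55 in the first series. The 2 arrays lie on opposite sides of 0 for several probe sets, such as EPAS1 200878_at at 0.49 and -0.79. The deposited signal of EPAS1 200878_at fell on both arrays. Anchored on the 100 brightest probe sets the HIF1A change was -0.035.

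Over all probe sets of the first series the change went with brightness across the deciles on array A, and mainly in the highest decile on array B. On array B the median change was -0.24 in the seventh C1 decile and -0.061 in the ninth. In the first series the median change of the highest C1 decile was 1.30 for array A and 0.46 for array B, whereas the lowest decile had -0.86 for array A and 0.086 for array B. Set against its own decile, HIF1A stood at the 90.2nd percentile on array A and the 95.1st on array B. That decile had a median C1 signal of 1794, far below the 19853 of HIF1A. The 100 probe sets brightest on C1 changed on average by 2.03 for array A and 1.59 for array B on the same centred scale, close to the 2.01 and 1.55 of HIF1A. BNIP3 201849_at stood at the 65.1st and the 73.7th percentile of the decile.

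VEGFA 210512_s_at, in the same decile, stood at the 14.7th percentile on array A and the 23.8th on array B, and EGLN1 223046_at at the 40.4th and the 27.8th. VHL 1559227_s_at, of the seventh decile, stood at the 87.5th and the 93.8th. In the second series HIF1A stood at the 62.1st percentile of its decile on array A and the 98.8th on array B, and BNIP3 201849_at at the 58.7th and the 63.5th. VEGFA stood at the 7.02nd and the 29.9th, EGLN1 223046_at at the 66.8th and the 30.7th, and VHL at the 27.6th and the 66.4th. Of these 5 probe sets, those of HIF1A, BNIP3 and VEGFA stayed on one side of their decile's middle on both arrays in both series. Those of EGLN1 and VHL did not. The other BNIP3 probe set of that decile, 201848_s_at, stood on the opposite side from 201849_at throughout. It was at the 33.5th and 23.6th percentile on arrays A and B in the first series, and the 8.80th and 19.6th in the second. In the second series HIF1A changed by 0.68 on array A and 1.18 on array B. The 100 probe sets brightest on C1 changed there by 1.14 and 1.23 on average.

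**Figure D3:**
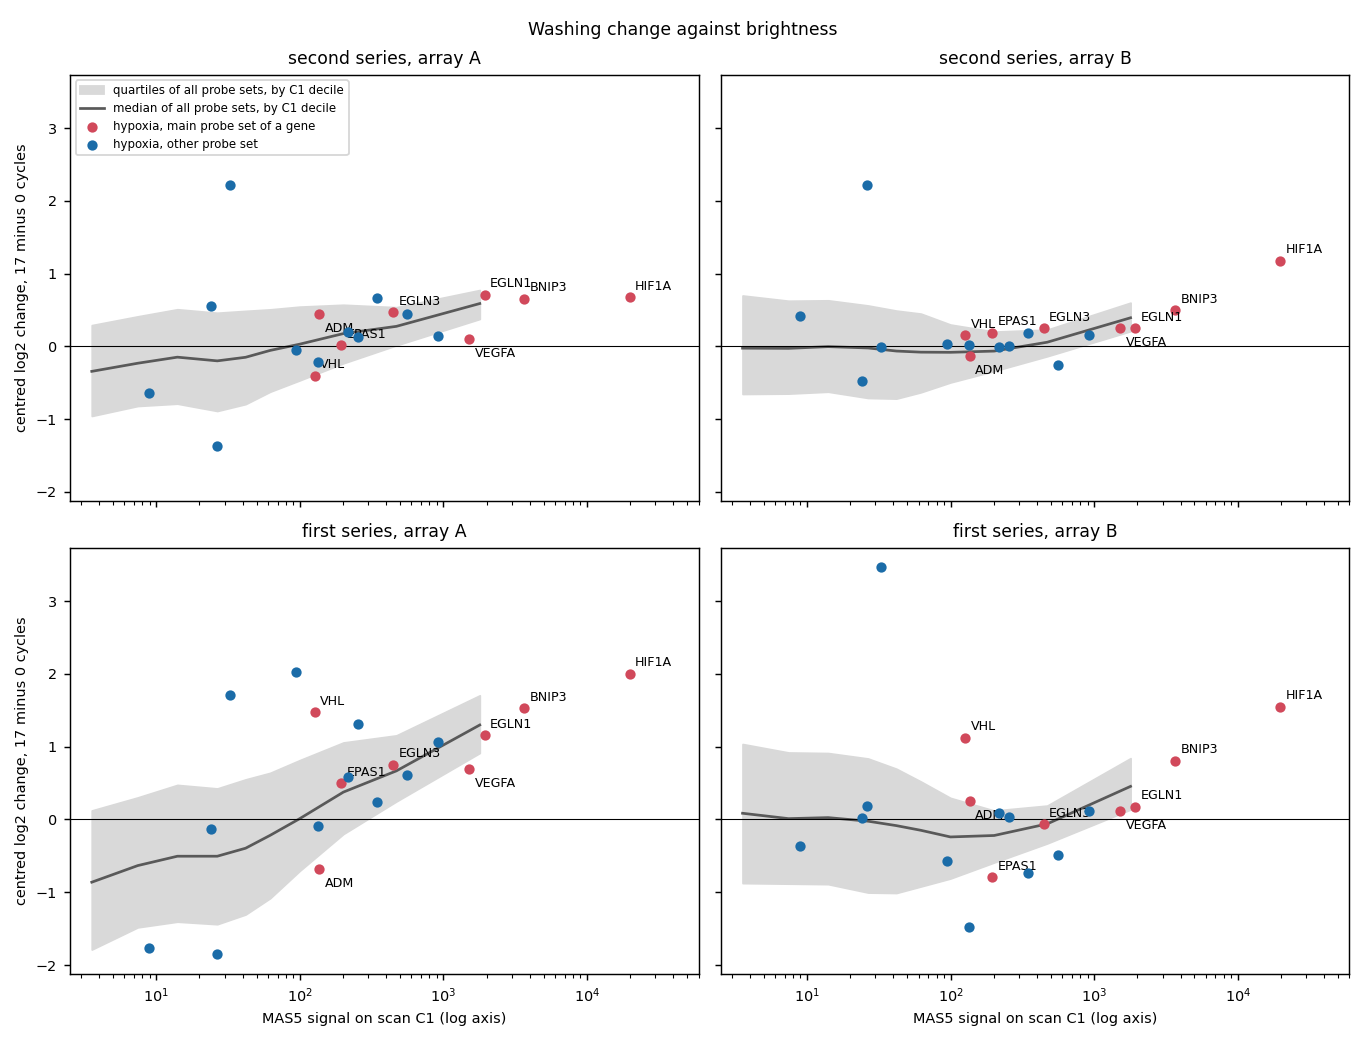
Centred log2 change from 0 to 17 cycles against the MAS5 signal on C1 (log axis), for the second series (top) and the first (bottom) and arrays A and B (left and right). The line is the median and the band the quartiles of all probe sets in each C1 decile, drawn at the decile's median signal; red points are the main probe sets of the 8 genes and blue points the others. In the first series the highest decile had a median of 1.30 for array A and 0.46 for array B, and the HIF1A points lie at 2.01 and 1.55.

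Re-labelling was compared over the means of each array, second minus first series, with the array as the unit (n = 3). Each scan of the second series had also had more stringent cycles in total than its partner. These were 17 on A5 against 0 on A1, 21 on B5 against 2 on B1, and 12 on C2 against 6 on C1. The second staining, the further cycles and the earlier scanning cannot be told apart here. The study describes a marked increase in the intensity of the arrays after re-staining. Scaling to a common trimmed mean and centring remove a rise shared by all probe sets, so it is not seen in these differences. The comparison passed for 0 of the 19 hypoxia probe sets and 0.00% of all probe sets (limma), with adjusted p-values of 0.769 to 1.00 for the 19. At an unadjusted p under 0.05 there was 1, EGLN1 223045_at (1.08 ± 0.32, SE, limma adjusted p = 0.769), against 3.01% of all probe sets higher and 3.29% lower.

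EPAS1 200878_at had a difference of -0.71 ± 0.28 (limma adjusted p = 0.769). It was lower in the second series in all 9 pairs of scans of the same array and step, by -0.12 to -0.84 on array A, by -0.47 to -1.45 on array B and by -0.48 on array C. After centring it was the only one of the 19 with a single direction in all pairs, against 1.69% of all probe sets lower and 1.80% higher in all 9. On the anchored scale A8 against A4, B8 against B4 and C2 against C1 were not lower. The anchored difference was -0.27 ± 0.28 (limma adjusted p = 0.586). With the 9 pairs as the unit the centred difference was -0.78 ± 0.17 (limma adjusted p = 0.0573), and 0 of 19 were called, against 0.465% of all probe sets higher and 0.530% lower. The 9 pairs are repeated readings of 3 arrays and so are not independent.

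By array means, 3 of the 19 were higher on all 3 arrays (EPAS1 241055_at, VHL 203844_at and EGLN1 223045_at) and 2 lower (EPAS1 200878_at and VEGFA 212171_x_at), against 13.7% of all probe sets higher and 14.1% lower. The array B mean of EPAS1 241055_at was only 0.015 and the array A mean of VHL 203844_at only 0.026, each with 2 of 4 pairs higher. On array C, with 1 pair, these 2 probe sets differed by 2.67 and 1.66. The arrays differed for several genes. EGLN1 223046_at was higher in all 4 pairs of array A, by 0.22 to 0.67, and lower in all 4 pairs of array B, by -0.13 to -0.30. EGLN3 222847_s_at was likewise higher in the pairs of array A and lower in those of array B, and VEGFA 211527_x_at was lower in the pairs of array A and higher in those of array B. Such opposite directions held for 3 of the 19, against 4.38% of all probe sets. BNIP3 201849_at was higher in the 8 pairs of arrays A and B, by 0.0079 to 1.00, and lower on array C by -0.40.

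HIF1A differed by 0.19, 0.26, -0.73 and -1.14 in the pairs of array A at 0, 2, 7 and 17 cycles, by 0.30, 0.045, 0.0090 and -0.073 in those of array B and by -0.38 on array C. The fitted difference was -0.22 ± 0.27 (limma adjusted p = 0.925).

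**Figure D4:**
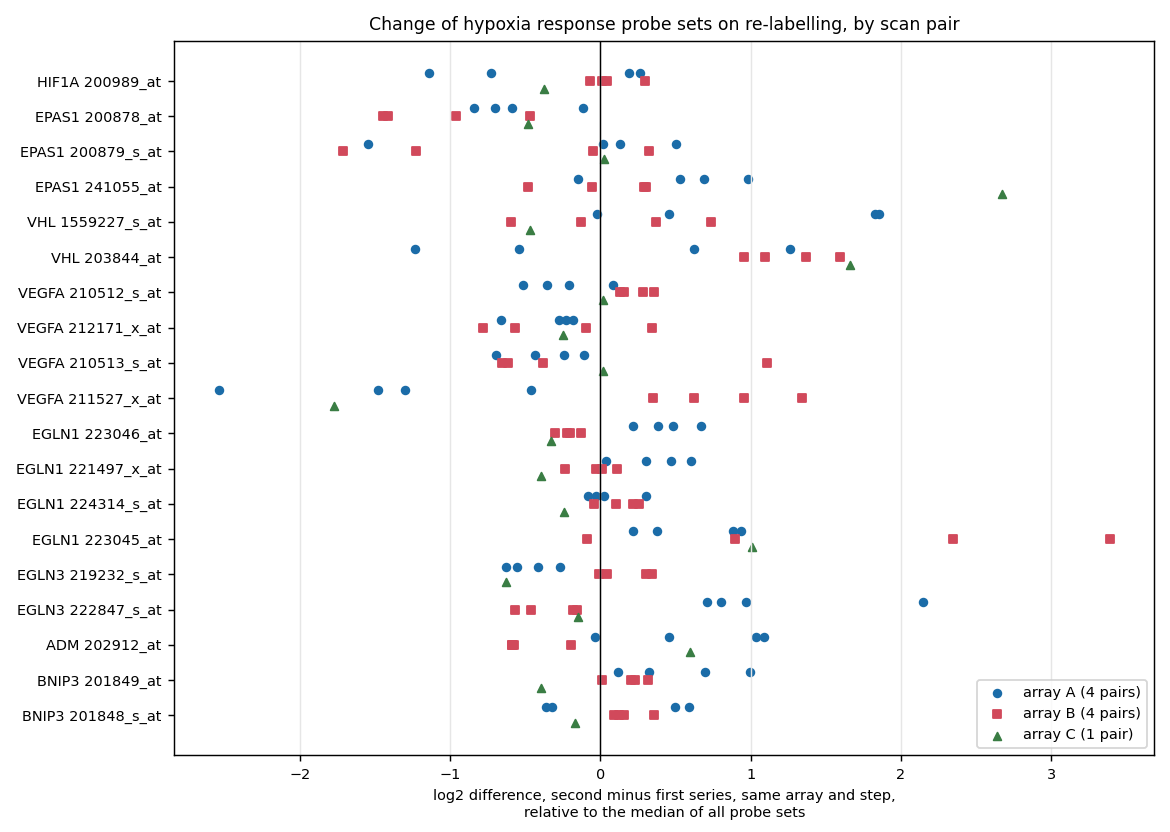
Log2 difference between the second and the first series (horizontal axis, each scan centred on its median) for each pair of scans of the same array and step, with the 19 probe sets in rows; circles are array A (4 pairs), squares array B (4 pairs) and triangles array C (1 pair). All 9 points of EPAS1 200878_at lie below 0, and the A and B points of EGLN1 223046_at lie on opposite sides of it.

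Array B was read against array A at the 8 steps matched by additional cycles. In total array B had had more stringent cycles, with 2 on B1 against 0 on A1 and 21 on B5 against 17 on A5. Array and these further cycles cannot be told apart here. Relative to the median of each scan, 7 of the 19 were higher on array B at all 8 steps (25.7% of all probe sets) and 1, EPAS1 241055_at, was lower at all 8 (8.20% of all). The 7 were HIF1A, EPAS1 200878_at, VEGFA 210512_s_at, EGLN1 221497_x_at, EGLN3 222847_s_at and both of BNIP3. HIF1A was higher by 1.12 to 2.26. The median of all probe sets was 52.7 to 63.8 on the scans of array B and 86.3 to 136 on those of array A. Centring subtracts this median, and the cause of the lower medians on array B was not tested. As deposited, HIF1A, VEGFA 210512_s_at and both of BNIP3 were also higher on array B at each step. EPAS1 200878_at, EGLN1 221497_x_at and EGLN3 222847_s_at were lower there at some steps. Examples are 117.4 on B5 against 118.0 on A5 for EPAS1, 327 on B8 against 466 on A8 for EGLN1, and 243 on B5 against 305 on A5 for EGLN3.

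Scans B1 and A2 both followed 2 stringent cycles, before staining on B1 and after it on A2. With 1 scan each there is no replicate check. Of the 19, 15 were higher on B1 after centring, against 60.1% of all probe sets, with a median difference of 0.69. On the deposited scale 9 of the 19 were higher on B1, against 36.8% of all, with a median of -0.053. HIF1A was higher on B1 after centring and lower before it. As deposited, it had 16335 on B1 and 16946 on A2, EPAS1 200878_at 323 and 204, VHL 1559227_s_at 69.0 and 128, and EGLN1 223045_at 6.92 and 196. Array and the order of washing and staining cannot be told apart here.

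A further 46 genes of the pathway were described by their brightest probe set on C1, and limma called 0 of them in all 4 comparisons. At an unadjusted p under 0.05, 12 were higher and 0 lower after washing in the first series, against 6.14% and 6.21% of all probe sets. In the second series 13 were higher and 1 lower, against 7.11% and 5.02%. For the difference between the series 1 was higher and 7 lower, against 3.73% and 2.79%, and on re-labelling 1 was higher and 0 lower, against 3.01% and 3.29%. These percentages cover all probe sets and are not matched for brightness, whereas each of the 46 genes is given by its brightest probe set.

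A change above 0 over 17 cycles of the first series was found for 50.4% of all probe sets. Of 12 genes of oxygen sensing, 8 had one, with a median change of 0.58. The largest was that of HIF3A, a further HIF alpha subunit, with 2.77 ± 0.43 (limma adjusted p = 0.268), followed by EGLN2, the hydroxylase PHD1, with 1.99 ± 0.58 (limma adjusted p = 0.314). Both were dim, at the 57.5th and the 50.01st percentile on C1, were named after their values were seen and changed in the second series by 0.51 ± 0.55 and -0.15 ± 0.37 (limma adjusted p = 0.699 and 0.873). The brightest of the list were ELOC and ELOB, the elongins that bind VHL, with 1.49 ± 0.40 and 1.98 ± 0.45 (limma adjusted p = 0.294 and 0.268), and RBX1, the RING subunit of the VHL ligase, with 1.07 ± 0.43 (limma adjusted p = 0.407).

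Of 13 HIF targets in glucose metabolism, 12 had a change above 0, against the same 50.4% of all probe sets, with a median of 1.35. LDHA, lactate dehydrogenase A, changed by 1.78 ± 0.38, and the glycolytic enzymes ENO1 and PGK1 by 1.82 ± 0.39 and 1.84 ± 0.38 (limma adjusted p = 0.268 for each). Of 21 other targets 13 had a change above 0, with a median of 0.36, among them TFRC, the transferrin receptor (1.41 ± 0.39), P4HA2, a collagen prolyl hydroxylase (1.26 ± 0.42), and BNIP3L, a mitophagy receptor (0.83 ± 0.38). In the second series the medians were 0.090, 0.61 and 0.43 for oxygen sensing, glucose metabolism and other targets. Apart from HIF3A and EGLN2, the 9 genes named from these lists lay at or above the 96.2nd percentile on C1, in the decile whose median change was 1.30 for array A and 0.46 for array B. Of the probe sets in that decile, 84.2% were higher on both arrays in the first series, so the 50.4% is not matched for brightness. Changes of these genes on the anchored scale are not given here.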

How the data were processed

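The deposited table holds 1 signal per probe set and scan, which the authors made with MAS5 (version not given in the sources used here) and scaled per scan; no filter, offset or detection call was used here. The 18 scans come from 3 arrays and 1 RNA, which limits the precision, and no pair of scans held identical values. Signals were taken to log2 and centred on the median of each scan. Tests used limma 3.58.1 in R 4.3.3 over all 54675 probe sets with Benjamini-Hochberg adjustment at 0.05, and were checked on simulated data. The array was the block because each array was scanned repeatedly. Python 3.11.15 with numpy 2.4.6 and pandas 2.3.3 gave the descriptive values and matplotlib 3.10.9 the plots. Of all probe sets, 41097 had 1 symbol in the annotation, 1801 several and 11777 none. The main probe set of a gene is the one brightest on C1, and only main probe sets have full statistics; others are named where they passed an unadjusted threshold or differed in direction. The members, gene lists and tests were chosen with earlier results of these data known. Alternatives were other scalings, an offset of 16, the brighter probe sets only, a variance trend, no block, washing cycles as a line, and leaving out scans or arrays.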

Additional observations from a re-analysis of the deposited data

How the results depend on the processing

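Other scalings turned the direction of many washing changes. Anchored on the 100 brightest probe sets, 29877 of all probe sets and 12 hypoxia ones were called in the first series, and 23406 and 10 in the second. In that scaling the first series gave HIF1A -0.035, VHL -0.52, VEGFA -1.40, EGLN1 -1.14, EGLN3 -1.47 and BNIP3 -0.64. EPAS1 and ADM, already below 0 in the main fit of that series, gave -1.96 and -2.02. The second series gave HIF1A -0.25, EPAS1 -1.08, VEGFA -1.01, EGLN1 -0.70, EGLN3 -0.82, ADM -1.03 and BNIP3 -0.60. The anchored re-labelling differences were 0.21 for HIF1A, 0.43 for VEGFA, 0.40 for EGLN1, 0.13 for EGLN3 and -0.27 for EPAS1. The deposited scale gave VEGFA -0.044 and EGLN3 -0.11 in the first series, EPAS1 -0.19, VEGFA -0.12 and ADM -0.14 in the second, and VEGFA 0.013 on re-labelling. Quantile normalization gave HIF1A -0.036, EPAS1 0.00385, VEGFA -0.40, EGLN1 -0.22 and BNIP3 -0.00963 in the first series, and VEGFA -0.27 and BNIP3 -0.10 in the second. An offset of 16 gave VEGFA 0.00595 on re-labelling.

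With a variance trend 1980 probe sets and 2 hypoxia ones were called in the first series, 2477 and 2 in the second, 1 for the difference and 2 on re-labelling. Cycles as a line called 661 and 1 (HIF1A) in the first series. The 9 pairs as the unit, which are not independent, called 544 on re-labelling and gave EGLN1 0.062. Without the replicate block, counts were 0 for washing in both series and 1 on re-labelling, and the adjusted p of HIF1A in the first series was 0.997 (limma). Leaving out each scan in turn for washing, or each array for re-labelling, called 0 to 0 probe sets, all of them or hypoxia ones, while washing on 1 array alone left no residual degrees of freedom and gives changes without a test. The changes over these omissions ran in the first series from -0.79 to 0.49 for EPAS1, from -0.68 to 0.26 for ADM, from -0.061 to 0.75 for EGLN3, from 0.18 to 1.16 for EGLN1 and from 0.12 to 0.70 for VEGFA, the last 3 lowest without array A and highest without array B. In the second series they ran from 0.60 to 1.26 for HIF1A, from 0.26 to 0.71 for EGLN1, from 0.10 to 0.25 for VEGFA, from -0.013 to 0.23 for EPAS1, from -0.47 to 0.22 for VHL and from -0.27 to 0.58 for ADM. The sign turned without A1 (ADM 0.011), A4 (ADM 0.19), B1 (EPAS1 0.41), B4 (EPAS1 0.16), array A (ADM, EGLN3) or array B (EPAS1), and in the second series without array A (VHL and ADM), A5 (VHL and ADM) or B8 (EPAS1). For re-labelling the ranges were -0.19 to 0.56 for VHL and -0.10 to 0.36 for BNIP3, both lowest without array A, where VEGFA was 0.12, and EGLN1 was 0.054 without array B and 0.11 without array C. Ranked by scan A1, the median percentile of the 19 was 65.4. Beyond the scaling or samples changed, the cause was not tested.

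The spread of a dim probe set limits what these scans show. The median SD of centred log2 signal over the 18 scans was 1.19 in the lowest C1 decile, 0.54 in the ninth and 0.69 in the highest. With 2 arrays the washing fits have 3 residual degrees of freedom.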
